A study of Homo sapiens with 13 samples.

Results

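The 4 human HOX clusters hold homeobox genes that encode DNA-binding transcription factors of body patterning, together with antisense and intergenic noncoding transcripts. The entries described here were those whose deposited symbol begins with HOXA, HOXB, HOXC or HOXD followed by a digit or by -AS, together with HOTAIR and HOTTIP. By symbol, 27 of the 22613 entries qualified, 24 of them coding and 3 antisense. They comprised 11 of cluster A, 6 of cluster B and 10 of cluster C, and 0 of cluster D. HOXA7, HOXB1 to HOXB5 and the coding HOXD genes had no entry, so nothing is known here of their levels. A further 13 HOX antisense or intergenic transcripts, among them HOTTIP, HOXA11-AS and a second HOTAIR entry, were listed under Ensembl identifiers and are given apart. Of the 27, 21 had a mean of at least 0.5 FPKM (fragments scaled by transcript length and by the number of mapped fragments) over the libraries, and differences are given for these only. Just inside that limit was HOXC9 (0.535 FPKM), and the highest left out were those of HOXB6 (0.406) and HOXA9 (0.296). All 21 also passed when the siFOXA1 library was left out of the mean. HOXC9 did not pass without the library labelled siMALAT1, where it was at 1.37 FPKM.

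RNA was sequenced from LNCaP-abl, an established prostate cancer line grown in hormone-depleted, charcoal-stripped serum, 72 h after siRNA transfection. The 13 libraries were 1 transfected with a control siRNA (siControl2) and 1 each with siRNA pools against FOXA1 and FOXM1 (transcription factors), CTCF and RAD21 (chromatin architecture), EZH2 and EED (Polycomb), KDM1A and SMARCA4 (other chromatin enzymes), BRCA1 and BRCA2 (DNA repair), or the noncoding RNAs PCAT1 and MALAT1. Each group had 1 library, so no difference carries a replicate error and no test was possible. Where a difference is called 2-fold, the log2(FPKM + 1) values of a knockdown and the control differed by at least 1. All 12 comparisons share the 1 control.

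HOX genes lie along each chromosome in the order of their paralogue numbers, and in the embryo low-numbered genes act toward the head and high-numbered genes toward the tail and the urogenital tract. Polycomb complexes, of which EZH2 and EED are subunits, are known to keep HOX genes silent, while Trithorax proteins such as MLL maintain them, and CTCF with cohesin, to which RAD21 belongs, forms boundaries within the clusters. The prostate arises from a posterior region and expresses high-numbered genes, HOXB13 above all.

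Promoter stretches are shown for HOXA11 and HOXA13, the coding genes of cluster A that were 2-fold higher in the siFOXA1 library. Both stretches are RefSeq sequence of GRCh38.p14 on the minus strand of chromosome 7, written 5′ to 3′ toward the gene. The HOXA11 stretch (chr7:27185233-27185482) ends at the base before the annotated start, and the HOXA13 stretch (chr7:27200107-27200341) ends at the edge of a longer annotated first exon. Capitals mark matches to AGGNGGC, the core of the CTCF motif, on either strand.
HOXA11: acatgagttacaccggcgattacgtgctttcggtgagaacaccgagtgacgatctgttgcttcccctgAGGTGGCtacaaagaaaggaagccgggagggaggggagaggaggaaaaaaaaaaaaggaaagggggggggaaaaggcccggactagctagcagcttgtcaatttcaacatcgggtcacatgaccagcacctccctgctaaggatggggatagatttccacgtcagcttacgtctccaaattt
HOXA13: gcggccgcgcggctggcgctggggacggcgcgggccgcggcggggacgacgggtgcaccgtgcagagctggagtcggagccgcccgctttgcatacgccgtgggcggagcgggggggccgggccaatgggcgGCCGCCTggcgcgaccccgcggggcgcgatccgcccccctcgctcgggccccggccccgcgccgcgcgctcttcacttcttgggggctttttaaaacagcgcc
Each stretch held 1 such match, and neither held the forkhead letters TGTTTNC on either strand. Over all 35116 promoter windows of 250 bases in the table, 31.5% held AGGNGGC and 15.5% held TGTTTNC. A match is a description of the letters and no evidence of binding. Divergent noncoding transcripts start close by, HOXA11-AS 176 bases from the HOXA11 start and HOTTIP 330 bases from that of HOXA13.

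The labelled cell type was checked against its markers. KRT8 was at 84.2 to 223 FPKM and FOLH1 at 207 to 516 over the 13 libraries. The prostate gene KLK3 stood at only 0.0165 to 0.524 FPKM, and of 3 basal markers only KRT14 was found, at 0 to 0.830 FPKM with 0 listed in 4 libraries. The siFOXA1 library had the highest KRT14 (0.830), and siRAD21 the highest PTPRC (3.14). Of the 2 leukocyte markers found, CD68 was at 5.19 FPKM in the control, 9.15 in siFOXA1 and 7.06 in siRAD21. PTPRC was at 0.946 in the control and at its lowest of the 13 libraries in siFOXA1 (0.1004), so the 2 markers went opposite ways there. The part of these markers in the HOX differences was not tested. Of 11 siRNA targets examined, 8 were lower in their own library than in every other. FOXA1 was at 44.2% of its control level in siFOXA1, RAD21 at 7.88% in siRAD21, EZH2 at 13.4% in siEZH2, EED at 46.2% in siEED, SMARCA4 at 17.1% in siSMARCA4 and KDM1A at 19.1% in siKDM1A. BRCA1 was at 16.5% of control in siBRCA1, with 2 other libraries lower, and BRCA2 was at 37.8% in siBRCA2, with 8 other libraries lower. MALAT1 was at 132% of control in the library labelled siMALAT1, which goes against that label. PCAT1 was not analysed here.

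High-numbered genes dominated the HOX transcripts listed for these cells. HOXB13, a factor of luminal prostate cells, averaged 117 ± 25.6 FPKM (mean ± SD over 13 libraries of different siRNAs, as for the means below). Next came HOXC12 at 30.6 ± 20.1, HOXC6 at 29.4 ± 7.28 and HOXA10 at 21.5 ± 5.68, whose ranges over the libraries overlapped. Without the siFOXA1 library, the mean of the low-numbered HOXC6 (29.0) was above that of HOXC12 (25.7). HOXC13, a regulator of hair keratins, averaged 14.5 ± 6.82 FPKM, and HOXA13, a gene of limb and urogenital patterning, 8.87 ± 5.53. HOXB-AS5, which RefSeq lists as a former name of PRAC2 beside HOXB13, averaged 10.8 ± 3.98.

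Levels changed abruptly between listed neighbours, HOXA7 having no entry. In cluster A the means were 0.164 FPKM for HOXA2, 0.842 for HOXA3, 2.35 for HOXA4, 5.38 for HOXA5, 3.48 for HOXA6, 0.296 for HOXA9, 21.5 for HOXA10 and 3.74 for HOXA11. Cluster C had 2 separate stretches of high level. HOXC4 (5.85 FPKM), HOXC5 (2.72) and HOXC6 (29.4) formed one, HOXC8 (1.05), HOXC9 (0.535), HOXC10 (0.259) and HOXC11 (1.14) lay low, and HOXC12 and HOXC13 formed the other. HOTAIR, the noncoding RNA between HOXC11 and HOXC12 that is known to bind Polycomb proteins, averaged 2.19. RefSeq gives HOXC4, HOXC5 and HOXC6 a common start, so how their shared reads were divided is uncertain. Among the coding genes listed for cluster B, HOXB13 stood alone, with HOXB9 at 1.90, HOXB7 at 1.66, HOXB6 at 0.406 and HOXB8 at 0.0394.

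**Figure D1:**
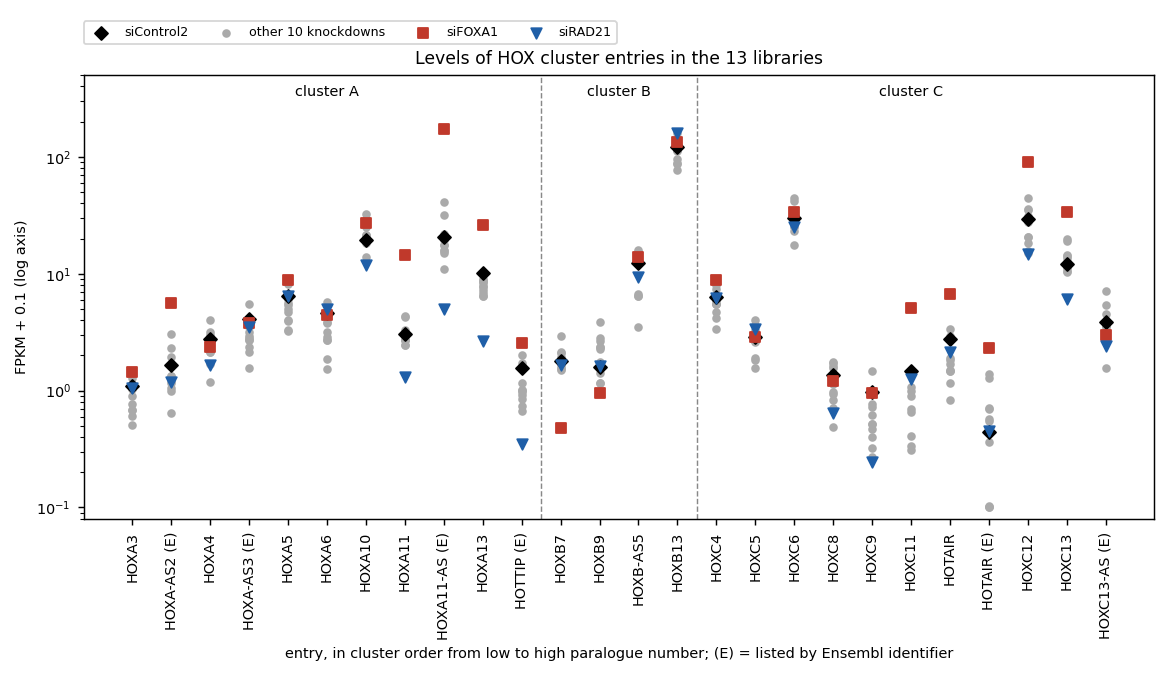
Level of 26 entries with a mean of at least 0.5 FPKM (20 listed by symbol and 6 by Ensembl identifier) in the 13 libraries, as FPKM + 0.1 on a log axis, with each point 1 library. HOXB13 is the highest by symbol at 77.6 to 160 FPKM, and the siFOXA1 squares stand above the other libraries from HOXA11 to HOTTIP and from HOXC11 to HOXC13.

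FOXA1 is the pioneer factor that opens chromatin at prostate enhancers. In the siFOXA1 library, 6 of the 21 members were at least 2-fold above the control, against 3.52% of the 15780 genes tested, and 0 of 21 were 2-fold lower, against 4.22%. With a pseudocount of 0.1, 1 member, HOXB7, was 2-fold lower. The 6 were HOXA11, HOXA13, HOXC11, HOXC12, HOXC13 and HOTAIR. All lie in the last stretch of cluster A or C, and each was higher in siFOXA1 than in the other 12 libraries. In a bulk library, more cells expressing a gene and more RNA per cell cannot be told apart.

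HOXA11 was at 2.93 FPKM in the control, 14.4 in siFOXA1 and 1.21 in siRAD21. The remaining libraries gave 2.35 in siBRCA1, 2.61 in siBRCA2, 2.94 in siCTCF, 4.13 in siEED, 3.20 in siEZH2, 2.38 in siFOXM1, 2.64 in siKDM1A, 4.29 in the library labelled siMALAT1, 2.64 in siPCAT1 and 2.96 in siSMARCA4. The siFOXA1 value thus lay 1.54 log2 units above the next highest library, and 1.97 above the control. HOXA13 was at 9.996 FPKM in the control, 26.3 in siFOXA1 and 2.55 in siRAD21. The other libraries gave 8.92 in siBRCA1, 6.405 in siBRCA2, 7.73 in siCTCF, 8.28 in siEED, 7.20 in siEZH2, 6.79 in siFOXM1, 7.56 in siKDM1A, 8.62 in the library labelled siMALAT1, 6.31 in siPCAT1 and 8.63 in siSMARCA4. These 10 values lay in a narrow band below the control, with siFOXA1 1.31 above the control and siRAD21 1.63 below it on the log2 scale.

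HOXC12, the neighbour of HOXC13, was at 29.2 FPKM in the control, 89.7 in siFOXA1 and 14.7 in siRAD21. It was at 15.4 FPKM in siBRCA1, 15.01 in siBRCA2, 20.6 in siCTCF, 27.9 in siEED, 35.1 in siEZH2, 35.9 in siFOXM1, 18.3 in siKDM1A, 44.6 in the library labelled siMALAT1, 31.2 in siPCAT1 and 20.6 in siSMARCA4. The siFOXA1 value was 1.59 log2 units above the control and 0.99 above the next library. HOXC13 was at 12.02 FPKM in the control and 33.7 in siFOXA1, with the 10 libraries other than these and siRAD21 at 10.2 to 19.8 (median 13.03). Its difference was 1.41, and the gap to the next library was 0.74. HOXC11 was at 1.38 FPKM in the control and 5.04 in siFOXA1 (1.34), and at 0.210 to 1.32 in those 10 libraries. HOTAIR was at 2.69 FPKM in the control and 6.61 in siFOXA1 (1.04), and at 0.731 to 3.28 in them. The library was the highest of the 13 for 9 members in all, HOXA3, HOXA5 and HOXC4 included, against 15.7% of all genes tested. No member other than HOXA11, HOXA13 and HOXC11 lay at least 1 log2 unit above all other libraries in siFOXA1, a state found in 0.494% of all genes tested.

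The differences in siFOXA1 followed position. The median over the 9 coding members of paralogue groups 9 to 13 was 1.31, and that over the 10 members of groups 1 to 8 was -0.02, beside 0.02 over all genes tested. Within cluster A, HOXA3 to HOXA6 had differences from -0.18 to 0.40, HOXA10 was at 27.02 against 19.3 FPKM (0.46), and the increase of 2-fold or more began at HOXA11. Within cluster C it began at HOXC11, since HOXC9 (-0.02) and HOXC8 (-0.10) were close to the control. No cluster B member was 2-fold higher. HOXB13 was at 133 FPKM in siFOXA1 and 121 in the control (0.13), whereas HOXB7 was at 0.380 against 1.69 (-0.96) and HOXB9 at 0.848 against 1.51 (-0.44), each the lowest of the 13 libraries, as siFOXA1 was for 14.3% of all genes tested.

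**Figure D2:**
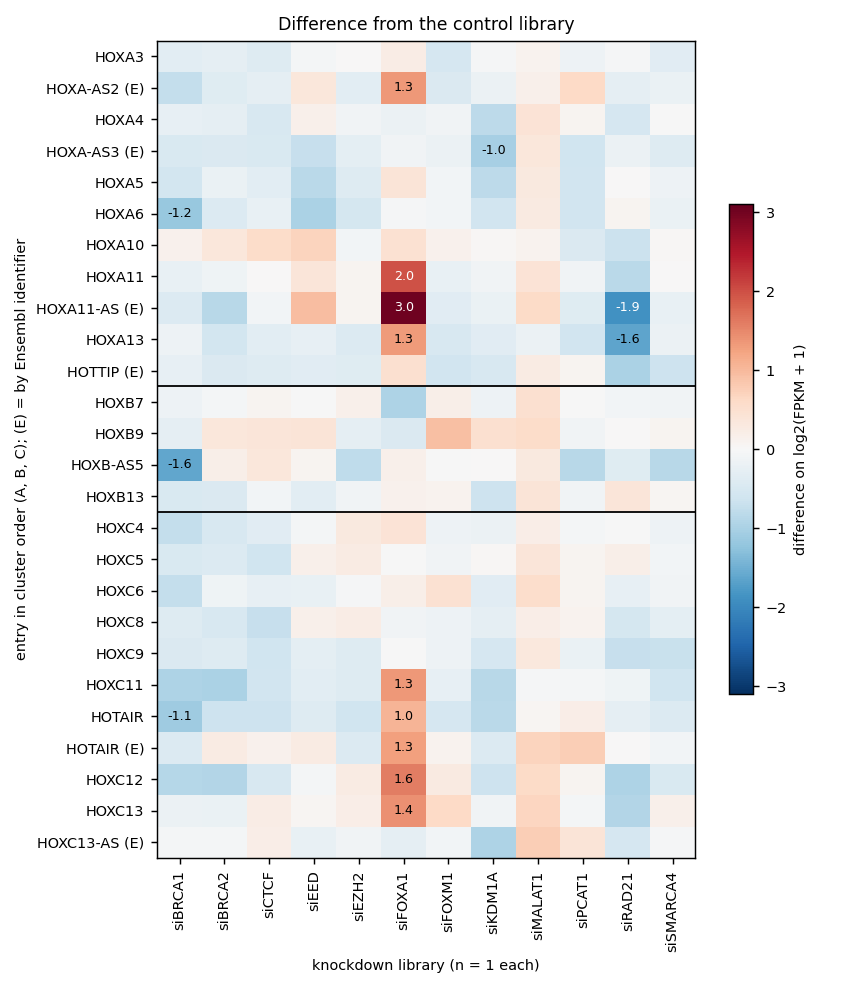
Difference of each knockdown from the control on the log2(FPKM + 1) scale for the same 26 entries in cluster order, with red above and blue below the control and values printed where they reach 1 in either direction. The siFOXA1 column holds 9 of the 15 printed values, all positive and in clusters A and C, and 1 of them, the second HOTAIR entry, passed the level filter only through siFOXA1.

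Cohesin holds chromatin loops together, and CTCF anchors many of them. The siRAD21 library showed the reverse order along the clusters only in part. Only HOXA13 of the 21 members was 2-fold lower (-1.63), against 1.88% of all genes tested, and 0 of 21 were 2-fold higher, against 0.906%. The siRAD21 library was nevertheless the lowest of the 13 in 6 members, HOXA10, HOXA11, HOXA13, HOXC9, HOXC12 and HOXC13, against 6.76% of all genes tested. For HOXC9 and HOXC12 the next lowest library was only 0.03 log2 units higher. HOXA13 lay 1.04 log2 units below the next lowest library, a gap of at least 1 being found in siRAD21 for 0.057% of all genes. HOXA10 was at 11.7 FPKM against 19.3 in the control (-0.68), and HOXC12 at 14.7 against 29.2 (-0.94). HOXC13 was at 5.95 against 12.02 (-0.91), and HOXA11 at 1.21 against 2.93 (-0.83). Not all high-numbered entries were low, since HOXC11 (1.17 against 1.38 FPKM) and HOTAIR (2.04 against 2.69) each ranked 9 from the lowest of the 13 libraries. HOXB9 was at 1.51 FPKM in both siRAD21 and the control. With a pseudocount of 0.1 in place of 1, which weights low levels more, 5 members were 2-fold lower in siRAD21, HOXA11, HOXA13, HOXC8, HOXC9 and HOXC13.

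Several low-numbered genes were near their control level in siRAD21. HOXA5 was at 6.37 FPKM against 6.35, HOXA6 at 4.86 against 4.48, HOXC4 at 6.07 against 6.17 and HOXC5 at 3.29 against 2.77. HOXA4 (-0.51) and HOXC8 (-0.55) were lower. The medians were -0.71 for groups 9 to 13 and -0.06 for groups 1 to 8. HOXB13, at 158 FPKM against 121 (0.38), went the other way from the high-numbered genes of clusters A and C.

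The siCTCF library did not show this order, its medians being -0.09 for groups 9 to 13 and -0.36 for groups 1 to 8. CTCF was at 16.8% of its control level there, and 0 of 21 members were 2-fold from the control, against 1.27% of all genes for higher and 2.85% for lower. There HOXA10 was at 29.1 FPKM (0.57), HOXA13 at 7.73 (-0.33), HOXC13 at 14.3 (0.23) and HOXC12 at 20.6 (-0.49). HOXC8, a trunk patterning gene, was furthest below the control at 0.384 against 1.27 FPKM (-0.71), followed by HOTAIR (-0.64), HOXC5 (-0.62) and HOXC9 (-0.62). Because siCTCF and siRAD21 share the control, these values are set side by side and the difference between the 2 libraries was not tested.

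**Figure D3:**
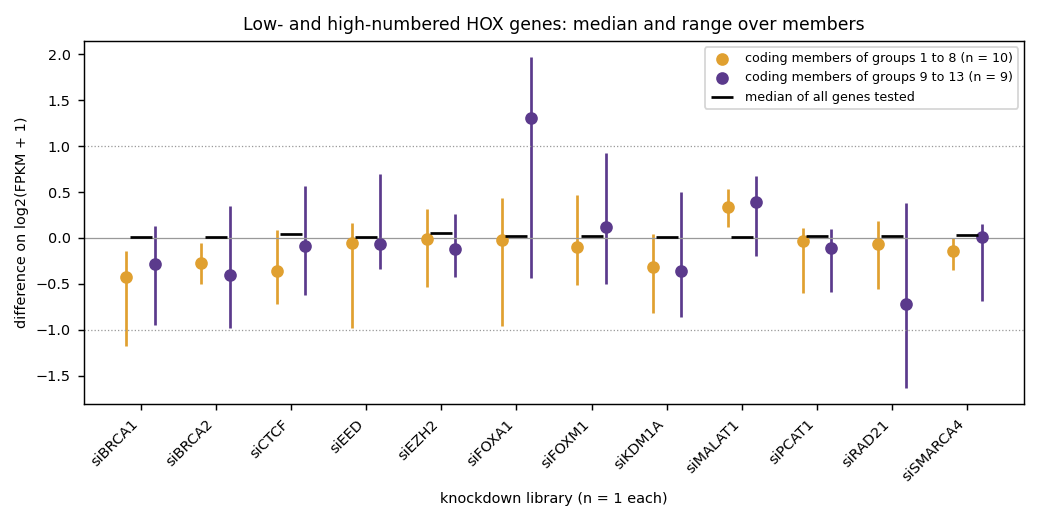
Median (point) and range (line) of the differences from the control over the coding members of paralogue groups 1 to 8 and 9 to 13 in each knockdown, on the log2(FPKM + 1) scale, with the median of all genes tested as a bar and dotted lines at 1 and -1. The high-numbered genes have their highest median in siFOXA1 (1.31) and their lowest in siRAD21 (-0.71).

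Noncoding transcripts beside these genes differed in how they varied. HOXA11-AS, listed by Ensembl identifier, was at 20.5 FPKM in the control, 174 in siFOXA1 and 4.85 in siRAD21. The other 10 libraries lay between 10.9 in siBRCA2 and 40.9 in siEED. Its differences were 3.02 in siFOXA1 and -1.88 in siRAD21, and both libraries stood at least 1 log2 unit outside all others. HOTTIP, a noncoding RNA at the end of cluster A known to bind the MLL partner WDR5, was at 1.46 FPKM in the control, 2.45 in siFOXA1 (0.49) and 0.252 in siRAD21 (-0.98), the highest and the lowest of the 13. The kit used for these libraries does not mark strand, so reads over any stretch that 2 opposite transcripts share cannot be told apart. By their RefSeq starts HOXA11 and HOXA11-AS run apart, as do HOXA13 and HOTTIP. Whether they overlap in the annotation used for these levels is not known.

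HOXC13-AS did not follow HOXC13. It was at 3.74 FPKM in the control, 2.92 in siFOXA1 (-0.27) and 2.29 in siRAD21 (-0.53), and was highest in the library labelled siMALAT1 at 7.003. HOXA-AS2, between HOXA3 and HOXA4, was at 5.48 FPKM in siFOXA1 against 1.56 (1.34), while HOXA3 was at 1.35 against 1.005 and HOXA4 at 2.24 against 2.66. The second HOTAIR entry was at 2.23 against 0.345 FPKM in siFOXA1 (1.26), but its mean without that library was 0.464 FPKM, so it passed the level filter only through siFOXA1 and supports nothing about the first entry. HOXA-AS3 by Ensembl identifier was at 1.47 FPKM in siKDM1A against 4.002 (-1.02), where HOXA5 (-0.80) and HOXA6 (-0.60), whose span it overlaps, were lower as well. The remaining 7 of the 13 Ensembl entries had means under 0.5 FPKM.

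**Figure D4:**
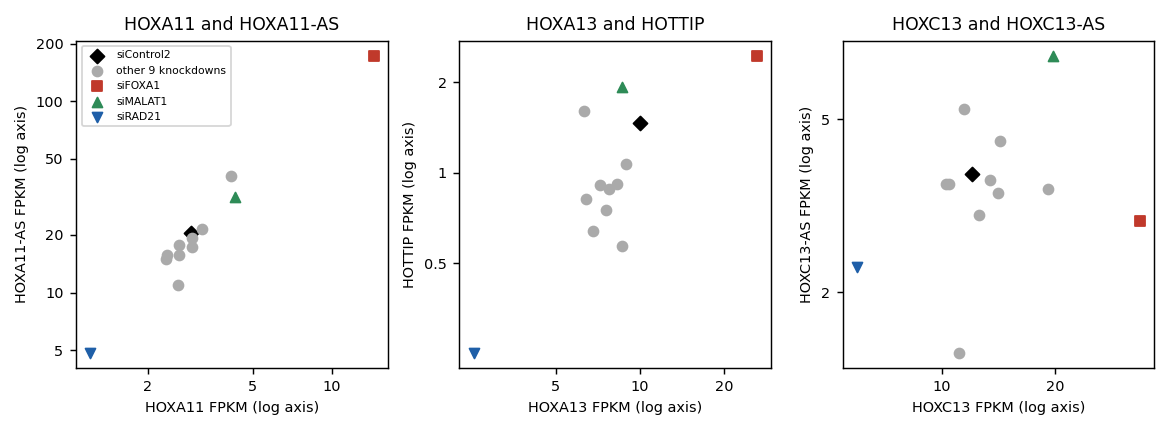
FPKM of 3 coding genes (x, log axis) against their noncoding neighbour (y, log axis), with each point 1 of the 13 libraries. The siFOXA1 square is at the upper right and the siRAD21 triangle at the lower left for HOXA11 with HOXA11-AS and for HOXA13 with HOTTIP, but HOXC13-AS is at 2.92 FPKM in siFOXA1, below its 3.74 in the control.

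BRCA1 is a DNA repair factor. In the siBRCA1 library, 3 of 21 members were 2-fold lower, against 0.944% of all genes tested, and 0 were 2-fold higher, against 0.45%. HOXB-AS5 was at 3.37 FPKM against 12.2 (-1.60), HOXA6 at 1.43 against 4.48 (-1.17) and HOTAIR at 0.731 against 2.69 (-1.09). Each was at its lowest of the 13 libraries, as were HOXC4 and HOXC6, making 5 members against 7.98% of all genes. Against the median of the other 11 knockdowns, HOXB-AS5 was still 2-fold lower (-1.61), whereas HOXA6 (-0.96) and HOTAIR (-0.66) were not. The Ensembl entry for PRAC2, the present name of HOXB-AS5, was at 8.32 FPKM in siBRCA1 and 6.51 in the control, so the fall was not seen in both entries of that locus. In all, 20 of the 21 members were below the control in siBRCA1, against 47.6% of all genes, HOXA10 (0.14) being the exception. This was not particular to siBRCA1, as 18 were below the shared control in siBRCA2, 17 in siKDM1A and 16 each in siRAD21 and siSMARCA4. Only in siFOXA1 (8) and the library labelled siMALAT1 (2) was a minority below it. The share of all genes below the control was not counted for siBRCA2, siKDM1A, siRAD21, siSMARCA4 or siFOXA1. The median difference over all genes tested was positive in every knockdown, from 0.0057 to 0.0535.

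The library labelled siMALAT1 had the opposite balance without a 2-fold difference (background 0.387% higher and 1.57% lower). There 19 of 21 members were above the control, against 52.4% of all genes, and HOXA13 (-0.19) and HOXC11 (-0.04) were below it. It was the highest of the 13 libraries for 8 members, against 5.86% of all genes. They included HOXB13 at 160 FPKM against 121 (0.40), HOXC6 at 44.1 against 30.1 (0.54, its highest difference, the lowest being -0.75 in siBRCA1), HOXA6 at 5.65 against 4.48 and HOXA4, a low-numbered gene of cluster A, at 3.90 against 2.66. HOXC9, at 1.37 FPKM, was also among the 8 and the 19. It passed the level filter only through this library, so it lends no support to either count. MALAT1 itself was not reduced in it, and these values describe the library, not a reduced MALAT1 level.

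In the knockdowns of the Polycomb subunits, the members stayed within 2-fold of the control on the log2(FPKM + 1) scale. In siEZH2 and in siEED, 0 of 21 reached it in either direction, where 0.894% of all genes were 2-fold higher and 3.09% lower in siEZH2, and 0.817% and 0.741% in siEED. HOXA10, at 32.0 FPKM in siEED, was the highest of the 13 libraries (0.70), and HOXA11 (0.38) and HOXA11-AS (0.96) were also above the control there. HOXA6, at 1.77 FPKM in siEED (-0.98), and HOXA5, at 3.14 (-0.83), lay below it. With a pseudocount of 0.1, HOXA6 was 2-fold lower in siEED. In siEZH2 the differences ran from -0.79 for HOXB-AS5 to 0.31 for HOXC4, with HOXA10 at -0.09. Of the 6 members under the level filter, HOXA2, HOXA9, HOXB6, HOXB8 and HOXC10 stayed at or under 0.582 FPKM in every library, and HOXA-AS3 by symbol reached 0.864 FPKM in siEED.

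In siBRCA2, siFOXM1, siKDM1A, siPCAT1 and siSMARCA4, 0 of 21 members were 2-fold from the control as well. The shares of all genes that were 2-fold higher there were 0.767%, 2.59%, 0.754%, 0.323% and 0.494% in that order, and those 2-fold lower were 0.76%, 3.6%, 1.55%, 1.33% and 1.97%. HOXC11 (-0.98) and HOXC12 (-0.92) came nearest in siBRCA2, and HOXB9 (0.93), at 3.76 FPKM against 1.51, in siFOXM1. In siKDM1A, the knockdown of a histone demethylase, HOXB13 had its lowest level, 77.6 FPKM (-0.64), and HOXC11 differed by -0.87. In siSMARCA4 HOXB-AS5 (-0.86) and HOXC9 (-0.68) were furthest below the control. In siPCAT1 HOXB-AS5 was again furthest, at 6.31 FPKM (-0.86).

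Among regulators of the clusters, few moved with siFOXA1. Of 25 Polycomb genes tested, 2 were 2-fold lower in siFOXA1, EZH2 (-1.46) and the PRC1 subunit CBX2 (-1.04), against 4.22% of all genes tested. Of the same 25, 0 were 2-fold higher, against 3.52%. The list median was -0.11, beside 0.02 over all genes tested. The part of these genes in the HOX levels was not tested. EZH2 (-1.26) and CBX2 (-1.54) were also 2-fold lower in siFOXM1, and EZH2 (-2.44) in siEZH2. In siCTCF EZH2 (-1.03) and the Polycomb partner PHF19 (-1.29) were 2-fold lower, and in siPCAT1 PHF19 (-1.04). The control had the highest EZH2 (16.4 FPKM) and PHF19 (5.62) of the 13 libraries, so both were below it in every knockdown. Of 18 Trithorax and related activators, 0 were 2-fold from the control in siFOXA1 or siRAD21, and in siSMARCA4 only the target SMARCA4 (-2.40) was. Of 3 retinoid genes tested, 0 were in any knockdown. The share of all genes that were 2-fold higher, or 2-fold lower, was at most 4.22% in any library. A count of 0 in lists this short is therefore no result about their genes.

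HOX proteins bind DNA with partners of the PBX, MEIS and PKNOX families. Of 6 partner genes tested, 0 were 2-fold from the control in any library, a list too short for that count to set it apart from all genes. PBX3 was at 2.002 FPKM in siFOXA1 against 3.79 (-0.67), and PKNOX2 at 0.238 against 1.41 (-0.96). MEIS1 had a mean of only 0.133 FPKM.

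Genes at and beyond the cluster ends were looked at as well. EVX1, a homeobox gene beyond HOTTIP, was at 1.90 FPKM in siFOXA1 against 1.65 (0.13) and at 0.643 in siRAD21 (-0.69). Next along, HIBADH was at 67.4 and 56.0 FPKM in these libraries against 52.6. At the other end, HOTAIRM1 was at 5.48 in siFOXA1 (0.45) and 1.33 in siRAD21 against 3.74 (-1.02), and SKAP2 at 48.8 and 27.3 against 38.0. Of 22 genes tested beside the clusters, 0 were 2-fold from the control in siFOXA1, against 3.52% higher and 4.22% lower of all genes. In siRAD21 only HOTAIRM1 was, against 0.906% higher and 1.88% lower. CBX1 in siEZH2 (-2.20) and CBX5 in siFOXM1 (-2.31), both heterochromatin protein genes, were the other differences of that size.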

How the data were processed

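Per the labels' protocols, cells were transfected with siRNA pools, RNA was taken at 72 h and libraries were made with the Illumina TruSeq RNA v2 kit. Per the submitters' processing notes, reads were aligned with TopHat and levels estimated with Cufflinks on hg19. Versions, annotation and strand setting are not given in the sources used here. Each library came as 22613 entries of log2 FPKM, deposited without counts. Their lowest value was the log2 of 0.1, so they were read as log2(FPKM + 0.1). Sorted values of the 13 libraries differed by at most 0.0562, a common distribution that no label records. With no counts, depth is unknown and no counting interval is given.

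FPKM was recovered by subtracting 0.1, and differences were taken on log2(FPKM + 1), which understates changes of low genes. Entries with a mean of at least 0.5 FPKM were kept, small RNA symbols left out, giving 15780. Python 3.11.15 and pandas 2.3.3 were used. Named genes were the members past the filter (1 is not reported here but stays in the counts and medians), with differences for those 2-fold from the control, and list genes 2-fold from it; other values were chosen after being seen. The members and lists were chosen with earlier results of these data known. Gene order came from RefSeq GRCh38.p14, another build than hg19, so no gene coordinates are given, and 11 of the 27 symbols had a promoter sequence. Tried in turn were another pseudocount (0.1), a filter at 1 FPKM and none, quantile normalization, the median of the other 11 knockdowns as reference, and centring.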

Additional observations from a re-analysis of the deposited data

How the results depend on the processing

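At the main settings, 10 differences of members reached 2-fold, 6 higher in siFOXA1 and 4 lower in siBRCA1 and siRAD21. All 10 kept their direction under the 6 alternatives. With no filter, with a filter at 1 FPKM and with quantile normalization the 10 were as before, but these settings could not change them: a filter leaves a difference as it is, and the libraries already shared 1 distribution. With centring the total was again 10. A pseudocount of 0.1 gave 31, 7 higher and 24 lower. There were 7 members in siFOXA1 (6 higher, and HOXB7 lower), 5 each in siBRCA1, siKDM1A and siRAD21, 3 in siCTCF, 2 each in siFOXM1 (HOXB9 higher and HOXA3 lower) and siSMARCA4, and 1 each in siBRCA2 and siEED, because low levels weigh more on that scale. Against the median of the other 11 knockdowns there were 1 in siBRCA1, 1 in the library labelled siMALAT1 (HOXC12) and 2 in siRAD21 (HOXA13 and HOXC13), and HOTAIR (-0.66) and HOXA6 (-0.96) in siBRCA1 fell under 2-fold. Of 36 cluster medians, 5 changed sign with that reference and 4 with no filter. No paired analysis was possible because each siRNA had 1 library. Without replicates or counts, no difference has an error estimate.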

Other observations

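Promoter sequence was at hand for 11 of the 27 symbols and for 6 of the transcripts listed by Ensembl identifier, HOXA-AS3 counting in both, in 23 distinct windows of 250 bases before a start. Their median GC content was 51.6%, beside 58% over all windows, and their median number of CpG dinucleotides was 11, as over all windows. The window before HOXA13 stood apart with 78% GC and 40 CpG, and the one before HOTTIP with 79.6% and 38, while that before HOXA-AS2 had 34.4% and 0. TGTTTNC was present in 4 of the 23 windows and AGGNGGC in 7. The window that RefSeq gives to both HOXC4 and HOXC5 held 2 forkhead matches, and neither gene was 2-fold from the control in siFOXA1 (0.43 and -0.00). HOXC11, HOXC12, HOXC13 and HOTAIR had no window, and the part of such letters in the differences was not tested.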
